A study of Mus musculus with 8 samples.

Results

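Co-stimulatory and co-inhibitory receptors set how a CD4+ T cell answers once its antigen receptor is engaged, and 10 of the 23361 gene symbols in the deposited expression table are described here for that role. They were taken by gene name, and the rule that lists them holds no measured value, although earlier results of these data were known when it was written. They comprise 3 co-stimulatory receptors (Cd28, Icos and Cd226), 6 inhibitory receptors (Ctla4, Pdcd1, Btla, Lag3, Havcr2 and Tigit) and Cd86, a ligand that CD28 and CTLA-4 share. All 10 symbols were in the table, and 9 of them, all but Havcr2, had a mean of at least 1 FPKM (the fragments of a gene scaled by its exon length and by the mapped fragments of the library, so a level per length) and were tested.

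RNA sequencing compared 4 Nrp-1+ and 4 Nrp-1- libraries of induced regulatory T cells (iTreg), labelled as biological replicates 1 to 4 of each group. Both groups started from naive CD44low CD62Lhigh CD4+ T cells of Foxp3-RFP reporter mice (B6 background, genotype label WT, young adult males in the study's methods), whose cells turn red when they express Foxp3. The cells were cultured on anti-CD3/CD28 microbeads with IL-2 (50 U/ml in the labels, while the study's methods state a dose by mass) and 2 ng/ml TGF-β for 3 days by the protocol, although the time label reads Day 5. Viable CD4+ Foxp3-RFP+ cells were then split by surface NRP-1, so that both groups had been stimulated through CD28 itself and both were sorted as Foxp3 expressers. Whether the replicates were separate mice or separate cultures is not stated, so the p-values measure the spread between these libraries, which may in part be technical.

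CD28 and ICOS deliver the second signal that a T cell needs beside antigen recognition, largely by recruiting phosphatidylinositol 3-kinase. CTLA-4 binds the same ligands as CD28, CD80 and CD86, more tightly, and regulatory T cells use it to strip these ligands from antigen-presenting cells. PD-1, BTLA, LAG-3, TIM-3 and TIGIT each restrain T cell activation through ligands of their own, and CD226 competes with TIGIT for CD155 as its stimulatory counterpart.

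The sort was visible in the RNA. Nrp1 itself measured 21.5 ± 0.709 FPKM in Nrp-1+ and 4.95 ± 0.262 FPKM in Nrp-1- iTreg (mean ± SD, n = 4 each), and Foxp3 measured 116 ± 3.72 and 109 ± 1.201 FPKM. From the step size of the lowest FPKM values, the libraries were estimated to hold 15500000 to 23500000 fragments, and the variance between replicates was a median of 2.61 (Nrp-1+) and 2.70 (Nrp-1-) times that of fragment sampling. The share of the FPKM total that fell on short RNA genes lay between 1.77% and 43.9%. The general T cell markers (Cd3d, Cd3e, Cd3g, Cd4 and Cd247) summed to 1664 to 1704 FPKM in Nrp-1+ and 1745 to 1877 FPKM in Nrp-1- iTreg, with 3 of the 5 called lower in Nrp-1+ iTreg, as were 20.0% of all genes tested. All 4 Treg markers (Foxp3, Il2ra, Ikzf2 and Ikzf4) were called higher in Nrp-1+ iTreg, as were 20.9% of all genes tested, with sums of 393 to 401 against 346 to 354 FPKM. Under quantile normalization the 3 T cell marker calls and 1 of the Treg marker calls were lost. In such bulk libraries, fewer cells that express a gene and less RNA per cell cannot be told apart.

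The receptors kept nearly the same order of FPKM levels in both groups. Ctla4 was the highest, followed by Cd28, Icos, Btla and Cd226, and this order held in 4 of 4 libraries of each group with no overlap between neighbours. Below them Pdcd1 ranked above Lag3 in Nrp-1+ iTreg in all 4 libraries, at means of 6.43 and 2.78 FPKM. In Nrp-1- iTreg Lag3 had the higher mean, 4.20 against 3.65 FPKM for Pdcd1, but the ranges of these 2 genes overlapped and 3 of 4 libraries had that order. Lag3 and Cd86 likewise overlapped in Nrp-1+ iTreg. Tigit, near 1 FPKM, and Havcr2, at or near 0, came last in both groups.

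Of the 9 genes tested, 2 were called higher in Nrp-1+ iTreg (Pdcd1 and Cd28), 2 were called lower (Ctla4 and Lag3) and 5 were not called (Icos, Btla, Tigit, Cd226 and Cd86). A call here means an adjusted p under 0.05 by limma on log2(FPKM + 1) with Benjamini-Hochberg adjustment over the 10467 genes tested. By the same rule 40.9% of all genes tested were called, 20.9% higher and 20.0% lower, so the share of receptors called was close to that of the table as a whole. With short RNA genes left out and the FPKM rescaled to a common total, 2946 genes were called higher and 1065 lower in place of 2189 and 2093, and the same 4 receptors were called in the same directions. The 2 groups of libraries did not overlap for 3 of the 9 receptor genes tested, Ctla4, Pdcd1 and Lag3, against 39.5% of all genes tested. None of the 9 differed by 2-fold, and the median log2 fold change over them was 0.05, beside -0.02 over all genes tested. Fold changes on the log2(FPKM + 1) scale understate the change of low genes, so the ratios of mean FPKM are given as well.

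**Figure D1:**
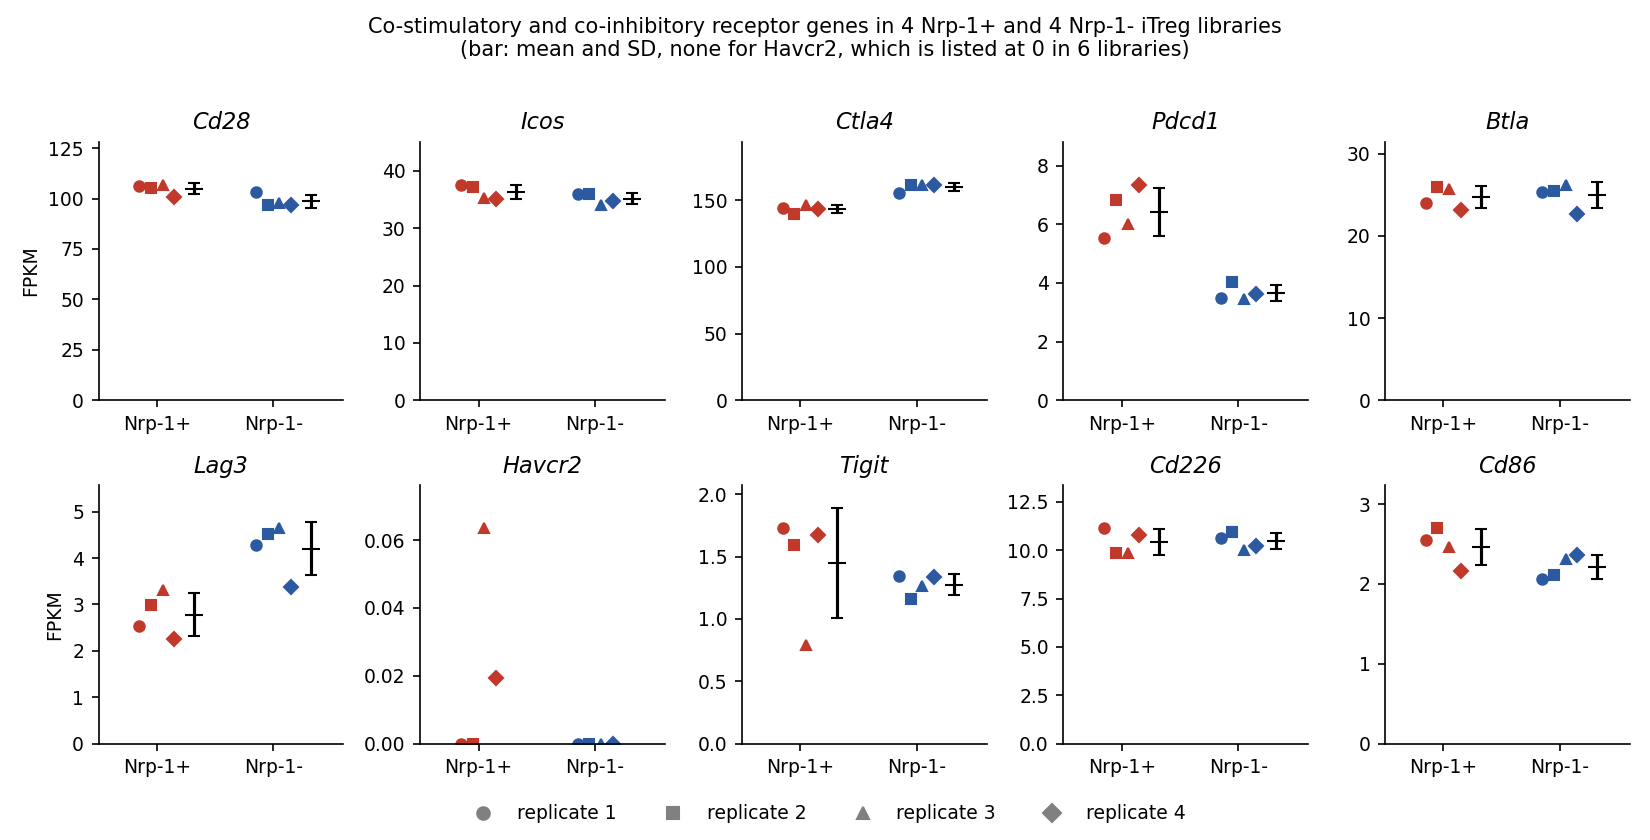
FPKM (y axis, linear, from 0) of the 10 genes in the 4 Nrp-1+ (red) and 4 Nrp-1- (blue) iTreg libraries; each symbol is a library, its shape the replicate number, and the bar is the mean and SD. Pdcd1 was higher in every Nrp-1+ library, at 5.53 to 7.35 against 3.45 to 4.04 FPKM, Ctla4 and Lag3 were lower in every Nrp-1+ library, and the other 7 genes overlapped or were listed at 0.

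Cd28, Ctla4 and Icos, relatives that arose from one ancestral receptor gene, lie in this order on the plus strand of mouse chromosome 1 (GRCm38, GENCODE M21), Cd28 (ENSMUSG00000026012.2) at chr1:60716800-60773359, Ctla4 (ENSMUSG00000026011.13) at chr1:60887000-60915832 and Icos (ENSMUSG00000026009.14) at chr1:60977927-61000320. Ctla4 was lower in Nrp-1+ iTreg, Cd28 was slightly higher and Icos was not called.

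Cd28, the receptor that the culture beads engage, measured 106, 105, 107 and 101 FPKM in Nrp-1+ replicates 1 to 4 and 103, 96.7, 97.8 and 96.7 FPKM in Nrp-1- replicates 1 to 4. Nrp-1- replicate 1 stood above the other Nrp-1- libraries and within the Nrp-1+ range, so the groups overlapped. The means were 105 ± 2.77 and 98.6 ± 3.06 FPKM (SD, n = 4 each), a difference of 6.26%, with a log2 fold change of 0.09 (SE 0.03, 95% confidence interval 0.02 to 0.15) and an adjusted p of 0.0433 by limma. Its absolute fold change ranked 4196 of the 4282 genes called. The call was not firm: it was lost in 12 of 20 alternative fits, among them 6 of the 8 that left out a library, without Nrp-1+ replicate 1, 2 or 3 or Nrp-1- replicate 2, 3 or 4, with adjusted p-values of up to 0.106 among these. The log2 fold change ranged from 0.06 to 0.15 over the 20 fits, and its highest value came with short RNA genes left out, where Cd28 was called (limma adjusted p = 0.00627).

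Icos, a co-stimulatory receptor induced by activation, measured 37.6, 37.3, 35.3 and 35.2 FPKM in the Nrp-1+ and 36.0, 36.1, 34.01 and 34.7 FPKM in the Nrp-1- libraries. The libraries of the groups were interleaved. The difference between the means, 36.3 ± 1.29 and 35.2 ± 0.994 FPKM, was 3.28%, and the interval of its log2 fold change ran from -0.03 to 0.12 (limma adjusted p = 0.291). Over the alternatives its log2 fold change of 0.05 ranged from 0.02 with the GC and length correction to 0.11 with short RNA genes left out, and was 0.03 without Nrp-1+ replicate 1 or Nrp-1- replicate 3; none of these was called.

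Ctla4, the most abundant of the 10 transcripts per length, measured 144, 139.8, 147 and 144 FPKM in the Nrp-1+ libraries. In the Nrp-1- libraries it measured 156, 162, 162 and 161 FPKM. Every Nrp-1- library lay above every Nrp-1+ library, and the SD within each group (2.85 and 2.95 FPKM) was small beside the difference between the means, 144 and 160 FPKM. Ctla4 was thus 10.3% lower in Nrp-1+ iTreg, with a log2 fold change of -0.16 (SE 0.02, 95% confidence interval -0.21 to -0.10) and a limma adjusted p of 0.000938. With short RNA genes left out the log2 fold change was -0.09 (limma adjusted p = 0.0178), and under quantile normalization it was -0.17 and was not called (limma adjusted p = 0.0518).

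Pdcd1 (ENSMUSG00000026285.7, chr1:94038305-94052553, minus strand), which encodes PD-1, a receptor that recruits phosphatases to the antigen receptor and CD28, showed the largest absolute fold change of the 9 genes tested. It measured 5.53, 6.82, 6.01 and 7.35 FPKM in the Nrp-1+ libraries and 3.49, 4.04, 3.45 and 3.61 FPKM in the Nrp-1- libraries. The lowest Nrp-1+ library exceeded the highest Nrp-1- library. The means, 6.43 ± 0.815 and 3.65 ± 0.269 FPKM, differed 1.76-fold, with a log2 fold change of 0.67 (SE 0.08, 95% confidence interval 0.48 to 0.86) and a limma adjusted p of 0.00036. The call held in all 20 alternative fits, with log2 fold changes of 0.61 to 0.79. These levels rest on an estimated 103 to 266 fragments per library, against 4839 to 7057 for Ctla4.

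The proliferation genes Mki67 and Top2a moved in the same direction as Pdcd1. Mki67 measured 82.3 ± 4.59 and 46.3 ± 1.40 FPKM (log2 fold change 0.82, limma adjusted p = 2.56e-06) and Top2a 346 ± 9.72 and 173 ± 3.08 FPKM (log2 fold change 1.00, limma adjusted p = 1.84e-07) in Nrp-1+ and Nrp-1- iTreg. Their part in the Pdcd1 difference was not tested. The 3 genes whose log2(FPKM + 1) ran most like that of Pdcd1 over the 8 libraries were Zdhhc21, which encodes a palmitoyltransferase, Nt5dc2 and Troap, which encodes a spindle-associated protein, with Pearson correlations of 0.99, 0.99 and 0.98. Since 999 of 10458 genes had a correlation over 0.9 with Pdcd1, and all share the same 8 libraries in 2 groups, this likeness is a description only.

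The promoters of the pair of CD28-family genes whose groups did not overlap, Pdcd1 and Ctla4, are shown to place their start sites and the short motifs searched there. The RefSeq promoter table (GRCm38.p6) held 5 of the 10 genes, each as 300 bases, from 250 before to 50 after the start of transcription. The 2 shown are Pdcd1 at chr1:94052504-94052803 on the minus strand and Ctla4 at chr1:60908775-60909074 on the plus strand, 5′ to 3′ on the gene's own strand, with motif matches on either strand in capitals. The Ctla4 window lies inside the GENCODE gene span, which begins at chr1:60887000. The RefSeq start used here is thus not the start of that span.
Pdcd1: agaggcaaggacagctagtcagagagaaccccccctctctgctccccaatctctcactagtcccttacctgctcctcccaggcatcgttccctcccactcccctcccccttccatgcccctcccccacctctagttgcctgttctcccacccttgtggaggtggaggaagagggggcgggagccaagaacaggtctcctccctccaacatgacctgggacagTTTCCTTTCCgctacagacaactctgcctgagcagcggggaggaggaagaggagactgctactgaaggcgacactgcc
Ctla4: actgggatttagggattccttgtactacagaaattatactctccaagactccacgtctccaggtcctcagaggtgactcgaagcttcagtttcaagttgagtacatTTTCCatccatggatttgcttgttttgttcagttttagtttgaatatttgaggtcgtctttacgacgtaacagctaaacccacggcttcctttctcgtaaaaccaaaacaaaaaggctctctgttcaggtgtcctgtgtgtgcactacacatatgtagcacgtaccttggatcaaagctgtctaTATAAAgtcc
The capitals in Pdcd1 mark 2 adjoining matches to the NFAT core (GGAAA, here on the opposite strand), and those in Ctla4 mark 1 such match and the letters of a TATA box (TATAAA), which lie at the end of the window, past the annotated start. AP-1 sites (TGANTCA), gamma-activated sites (TTCNNNGAA) and the CRE half-site (TGACG) had no match in either window. On both strands, the NFAT core occurred in 61.3% of 32851 RefSeq promoters of this length, the TATA box in 13.6%, the CRE half-site in 20.8%, the gamma-activated site in 8.30% and the AP-1 site in 7.81%. A match describes these letters only, and no binding was measured here.

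Btla, an inhibitory receptor bound by HVEM, measured 24.0, 26.0, 25.7 and 23.2 FPKM in the Nrp-1+ and 25.4, 25.5, 26.3 and 22.6 FPKM in the Nrp-1- libraries. The groups covered nearly the same range. Its means of 24.7 ± 1.36 and 24.9 ± 1.59 FPKM gave a log2 fold change of -0.01 with an interval of -0.14 to 0.11 (limma adjusted p = 0.876), and its sign turned under other fits, to 0.05 with short RNA genes left out.

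**Figure D2:**
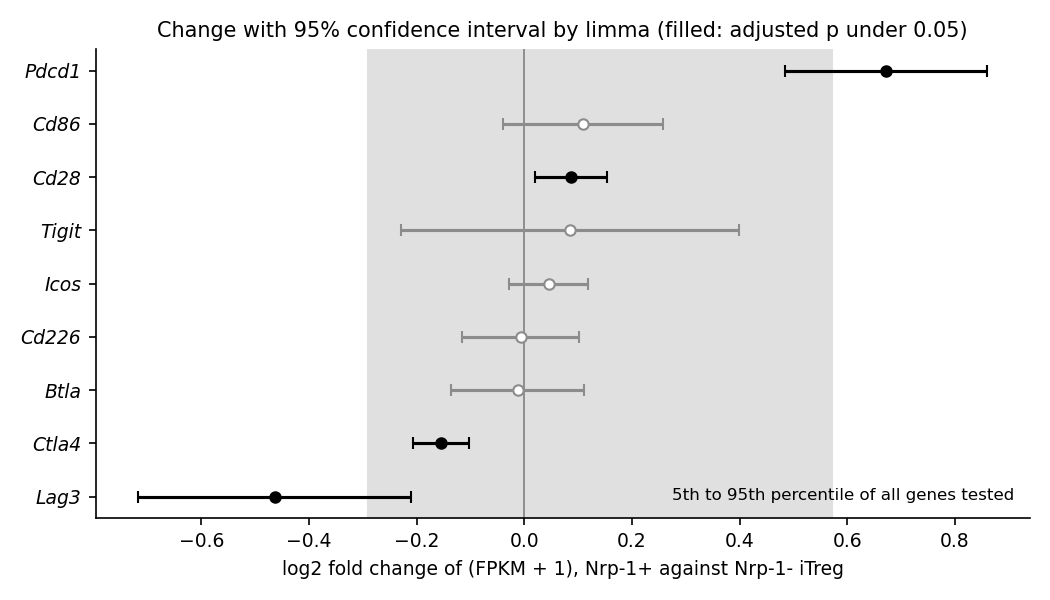
Log2 fold change of (FPKM + 1) in Nrp-1+ against Nrp-1- iTreg (x axis) with 95% confidence intervals by limma for the 9 genes tested, filled where the adjusted p was under 0.05; the grey band spans the 5th to 95th percentile of all 10467 genes tested, -0.29 to 0.57. Pdcd1 lay above and Lag3 below the band, while Cd28 and Ctla4 were called at changes inside it.

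Lag3 (ENSMUSG00000030124.2, chr6:124904361-124911705, minus strand) encodes a CD4-related receptor that binds MHC class II. It measured 2.55, 2.99, 3.32 and 2.26 FPKM in the Nrp-1+ libraries and 4.27, 4.52, 4.65 and 3.38 FPKM in the Nrp-1- libraries. The groups did not overlap, but the highest Nrp-1+ library (replicate 3) and the lowest Nrp-1- library (replicate 4) nearly met. The means, 2.78 ± 0.467 and 4.20 ± 0.571 FPKM, differed 1.51-fold, with a log2 fold change of -0.46 (SE 0.11, 95% confidence interval -0.72 to -0.21) and a limma adjusted p of 0.0108. The call held in the 19 alternative fits that tested Lag3, at log2 fold changes of -0.58 to -0.40, on an estimated 85 to 200 fragments per library. Lag3 and Pdcd1, both inhibitory and both under 10 FPKM, thus changed in opposite directions.

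Havcr2, which encodes TIM-3, was listed at 0 in all 4 Nrp-1- libraries and in Nrp-1+ replicates 1 and 2. Nrp-1+ replicates 3 and 4 were listed at 0.0636 and 0.0195 FPKM. At most an estimated 4 fragments stood behind any of these values, so a difference between the groups was not detectable at this depth.

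Tigit, the inhibitory receptor for CD155, measured 1.73, 1.59, 0.789 and 1.68 FPKM in the Nrp-1+ libraries and 1.35, 1.16, 1.27 and 1.33 FPKM in the Nrp-1- libraries. Nrp-1+ replicate 3 was the lowest of all 8 libraries, whereas the other Nrp-1+ libraries were the highest. The means were 1.45 ± 0.442 and 1.28 ± 0.0850 FPKM, and the log2 fold change of 0.08 had an interval of -0.23 to 0.40 (limma adjusted p = 0.653). Without Nrp-1+ replicate 3 the log2 fold change was 0.23 and Tigit was called higher (limma adjusted p = 0.0331), whereas it was 0.03 without Nrp-1+ replicate 1, 0.05 without replicate 2 and 0.03 without replicate 4, none of these called. These levels rest on an estimated 16 to 30 fragments per library.

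Cd226, the stimulatory receptor for the same ligand, measured 11.1, 9.85, 9.86 and 10.8 FPKM in the Nrp-1+ and 10.6, 10.95, 10.0 and 10.2 FPKM in the Nrp-1- libraries. The groups were interleaved. The means of 10.4 ± 0.661 and 10.5 ± 0.417 FPKM gave a log2 fold change of -0.01, with an interval of -0.12 to 0.10 (limma adjusted p = 0.925), and its sign turned in 5 of 20 alternative fits, to 0.05 with short RNA genes left out.

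Cd86, a ligand of CD28 and CTLA-4 better known from antigen-presenting cells, measured 2.55, 2.70, 2.47 and 2.16 FPKM in the Nrp-1+ and 2.06, 2.11, 2.32 and 2.37 FPKM in the Nrp-1- libraries. The 3 highest values were in Nrp-1+ libraries, and Nrp-1+ replicate 4 fell among the Nrp-1- libraries. The means, 2.47 ± 0.226 and 2.21 ± 0.151 FPKM, differed by 11.5%, with a log2 fold change of 0.11 (interval -0.04 to 0.26) that was not called (limma adjusted p = 0.214).

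Markers of antigen-presenting cells were mostly near 0 in these sorted cells. All 4 B cell markers averaged under 1 FPKM, with Ms4a1 and Pax5 at 0 in every library, and summed to 0.388 to 0.867 FPKM in Nrp-1+ and 0.193 to 0.586 FPKM in Nrp-1- iTreg. Of 8 dendritic cell and macrophage markers, 7 averaged under 1 FPKM and Itgam, an integrin chain, measured 6.70 ± 0.252 and 5.56 ± 0.154 FPKM, so that the list summed to 6.72 to 7.27 and 5.61 to 6.01 FPKM. Among MHC class II genes, Cd74, the invariant chain, was higher in Nrp-1+ iTreg (8.69 ± 0.977 and 5.58 ± 0.424 FPKM, limma adjusted p = 0.000682) and H2-Ab1, a class II β chain, was lower (10.2 ± 0.947 and 13.8 ± 1.76 FPKM, limma adjusted p = 0.0087), while the other 3 averaged under 1 FPKM and the list summed to 18.6 to 22.8 and 18.7 to 23.6 FPKM. NK cell markers (Ncr1 and Klrb1c) stayed under 1 FPKM in every library, with sums of at most 0.142 FPKM. Cd8a was near 0 and Cd8b1, the other CD8 chain, measured 7.86 ± 0.742 and 10.0 ± 0.935 FPKM (limma adjusted p = 0.0119). The part of such cells in the receptor values was not tested.

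Ratios within a library set the receptors against each other without any scaling between libraries. The ratios printed are of FPKM, while the differences and tests used log2 of the ratio of (FPKM + 1). The ratio of Ctla4 to Cd28 FPKM was 1.36, 1.33, 1.37 and 1.43 in the Nrp-1+ libraries and 1.51, 1.67, 1.65 and 1.67 in the Nrp-1- libraries, and the groups did not overlap. The mean ratio was 1.37 ± 0.0397 against 1.63 ± 0.0776 (SD, n = 4 each), a difference of -0.24 on the log2 scale. The exact two-sided permutation test gave p = 0.0286, the smallest that 4 libraries against 4 allow, and an adjusted p of 0.0571 over the 4 ratios tested, which missed 0.05. Since this ratio and Ctla4 to Icos alone had the smallest p, their adjusted p could not fall below 0.0571.

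The ratio of Ctla4 to Icos, which shares Ctla4 with the first, was 3.84, 3.75, 4.16 and 4.08 in the Nrp-1+ and 4.33, 4.48, 4.75 and 4.65 in the Nrp-1- libraries, again without overlap. Its difference was -0.20 on the log2 scale (exact permutation p = 0.0286, adjusted p = 0.0571). Icos to Cd28, the ratio of the co-stimulatory relatives, was 0.347 ± 0.0115 and 0.357 ± 0.0116 with overlapping libraries (exact permutation p = 0.371, adjusted p = 0.495, n = 4 each). Its log2 difference of -0.04 was -0.02 without Nrp-1+ replicate 3 and also without Nrp-1- replicate 2. Tigit to Cd226 was 0.138 ± 0.0388 and 0.122 ± 0.0110 (exact permutation p = 0.514, adjusted p = 0.514, n = 4 each), with Nrp-1+ replicate 3 the lowest at 0.0801. Its log2 difference of 0.09 was 0.21 without that library (exact permutation test, adjusted p = 0.0571), and without Nrp-1+ replicate 1, 2 or 4 or Nrp-1- replicate 2 it was 0.06, 0.03, 0.06 and 0.05. Without the added 1, the adjusted p of the exact permutation test was 0.743 for Tigit to Cd226 and unchanged, to the digits given, for the other 3 ratios. Ctla4 thus lay lower relative to both co-stimulatory relatives in each Nrp-1+ library, although neither ratio passed after adjustment.

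**Figure D3:**
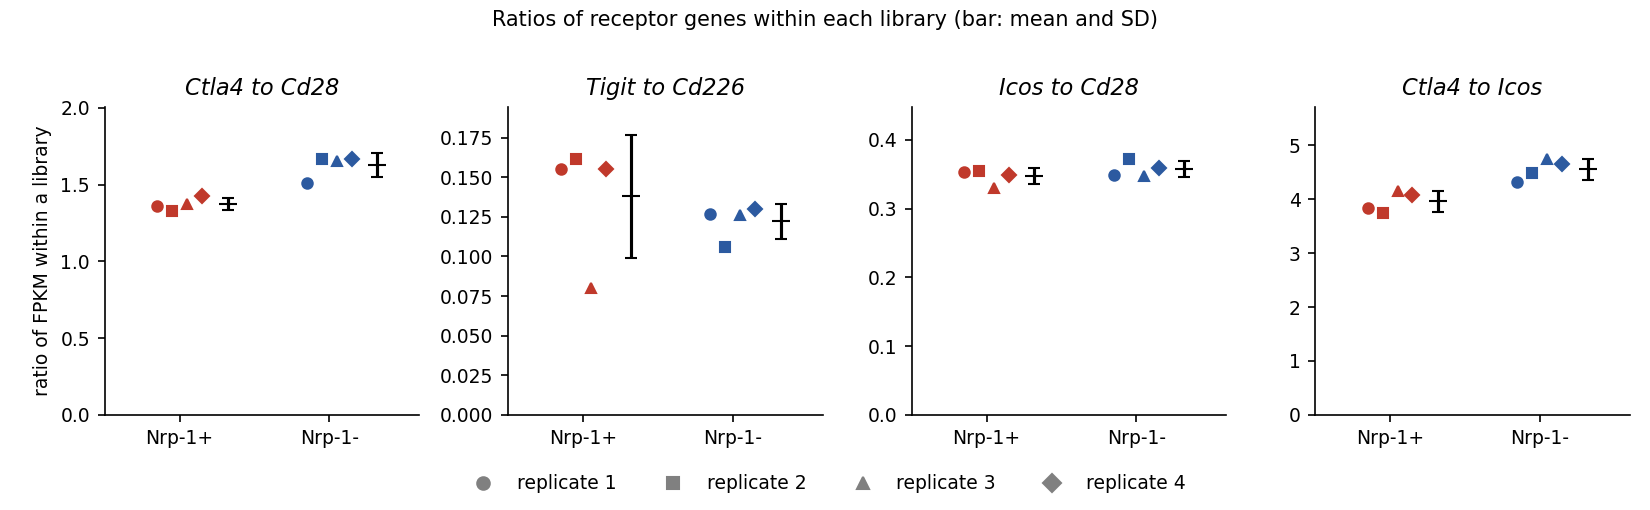
Ratio of FPKM of each pair of receptor genes within a library (y axis, from 0) for the 4 Nrp-1+ (red) and 4 Nrp-1- (blue) iTreg libraries; shapes mark the replicate number and the bar is the mean and SD. Ctla4 to Cd28 ran from 1.33 to 1.43 in Nrp-1+ and from 1.51 to 1.67 in Nrp-1- libraries, and Tigit to Cd226 and Icos to Cd28 overlapped.

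The ligands of these receptors were read from the same fit. Of 13 ligand genes 9 were tested, and 3 were called higher, 1 lower and 5 were not called, beside 40.9% called over all genes tested, with a median log2 fold change of 0.10. That median is the value of Nectin2, at 1.14 ± 0.250 and 0.994 ± 0.261 FPKM in Nrp-1+ and Nrp-1- iTreg. Nectin2 was not called and passed the filter only through Nrp-1+ iTreg, so the median carries no weight. Cd80, the partner of Cd86 as a ligand of CTLA-4 and CD28, measured 15.7, 14.9, 15.6 and 14.2 FPKM in the Nrp-1+ and 9.87, 10.2, 10.0 and 9.04 FPKM in the Nrp-1- libraries. Every Nrp-1+ library was higher, the means differed by 54.6% and the log2 fold change was 0.58 (SE 0.04, limma adjusted p = 2.5e-05). Hmgb1, a chromatin protein that TIM-3 can bind once released, measured 284 ± 7.98 and 189 ± 3.72 FPKM (log2 fold change 0.59), and Lgals3, a galectin that binds LAG-3, 27.3 ± 1.55 and 22.6 ± 0.869 FPKM (0.26). Pvr, which encodes CD155, the ligand of both TIGIT and CD226, was lower at 19.96 ± 0.682 and 23.3 ± 0.725 FPKM (log2 fold change -0.22, limma adjusted p = 0.00111). The PD-1 ligand gene Cd274, at 4.20 ± 0.393 and 4.41 ± 0.456 FPKM, the BTLA ligand gene Tnfrsf14 and Icosl were not called. Pdcd1lg2, the other PD-1 ligand gene, averaged under 1 FPKM and was not tested. It measured 0.582 ± 0.0281 and 0.348 ± 0.102 FPKM without overlap, on an estimated 9 to 23 fragments per library. In the fit without a filter its limma adjusted p was 0.0137. Fgl1, a LAG-3 ligand gene, was listed at 0 in all 8 libraries.

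Other co-signalling receptors of T cells, from the immunoglobulin, SLAM and TIM families, numbered 26 with 16 tested, and 3 were called higher, 8 lower and 5 not called (all genes tested: 20.9% higher and 20.0% lower), with a median log2 fold change of -0.09, beside -0.02 over all genes tested. Vsir, which encodes the inhibitory receptor VISTA, measured 49.7 ± 1.62 and 63.7 ± 1.66 FPKM in Nrp-1+ and Nrp-1- iTreg (log2 fold change -0.35), and Cd7 89.98 ± 5.04 and 114 ± 5.39 FPKM (-0.34). Cd96, a further receptor for CD155, measured 100.2 ± 3.46 and 113 ± 4.44 FPKM (-0.17), and the inhibitory collagen receptor gene Lair1 5.67 ± 0.387 and 6.82 ± 0.487 FPKM (-0.23). Slamf7, at 0.789 ± 0.173 and 1.29 ± 0.0619 FPKM (-0.36), is among the 8 but passed the filter only through Nrp-1- iTreg, so its call carries no weight. Cd101, an inhibitory immunoglobulin receptor, was higher at 12.0 ± 0.942 and 9.99 ± 0.499 FPKM (0.24). For these 6 genes limma adjusted p-values ran from 3.9e-05 to 0.0145. With short RNA genes left out, 4 of the 16 were called higher and 5 lower, with Cd96 at -0.11, and under quantile normalization 1 was called higher and 7 lower.

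Signalling partners that act just beneath the receptors numbered 25 with 24 tested, and 2 were called higher, 11 lower and 11 not called (all genes tested: 20.9% higher and 20.0% lower), with a median log2 fold change of -0.06. Cblb, a ubiquitin ligase that holds back T cells lacking CD28 signals, measured 29.0 ± 0.110 and 37.0 ± 1.44 FPKM (log2 fold change -0.34, limma adjusted p = 4.1e-05). Pik3cd, the leukocyte catalytic subunit of phosphatidylinositol 3-kinase, measured 160.4 ± 5.06 and 187 ± 3.72 FPKM (-0.22), and Prkcq, the kinase that CD28 draws to the synapse, 151 ± 3.76 and 170.3 ± 1.77 FPKM (-0.17). Ptpn22, a phosphatase that restrains antigen receptor signals, was lower (-0.18). Akt1, a kinase downstream of phosphatidylinositol 3-kinase, was higher at 72.6 ± 1.95 and 64.1 ± 0.708 FPKM (0.18). The phosphatase genes most tied to PD-1 and BTLA, Ptpn6 and Ptpn11, were not called, at log2 fold changes of -0.02 and 0.07. With short RNA genes left out, 4 of the 24 were called higher and 8 lower, the median was 0.00, and Ptpn22 and Prkcq were still called at a log2 fold change of -0.11 each.

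Genes for the trafficking, shedding and turnover of these receptors numbered 19 with 17 tested, and 4 were called higher, 3 lower and 10 not called, beside 40.9% called over all genes tested, with a median of -0.01. Fut8, whose core fucosylation PD-1 carries, stood apart at 47.6 ± 1.22 and 32.6 ± 1.13 FPKM (log2 fold change 0.53, limma adjusted p = 5e-06). The other named changes were small: Ap1m1 (0.12) and Ap2m1 (0.10), subunits of clathrin adaptors that move CTLA-4, and Adam10 (0.09), a protease that sheds LAG-3, were higher. Fbxo38 (-0.10), a ubiquitin ligase for PD-1, and Def6 (-0.09), a partner in CTLA-4 recycling, were lower, and with short RNA genes left out these 2 calls were lost, 5 genes of the list were called higher, and Ap1m1, Ap2m1 and Adam10 stood at 0.19, 0.16 and 0.16. Under quantile normalization Ap2m1, Adam10 and Def6 were not called. Lrba, which keeps CTLA-4 from lysosomes, was not called, at 7.43 ± 0.302 and 7.51 ± 0.448 FPKM.

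Transcription factors linked to these receptor genes numbered 20 with 17 tested, and 3 were called higher, 6 lower and 8 not called, beside 40.9% called over all genes tested, with a median of 0.00. With short RNA genes left out the counts were 5 higher and 2 lower, so the balance of this list depended on the scaling. Tcf7, which encodes TCF-1, measured 310.5 ± 2.68 and 364 ± 3.90 FPKM (log2 fold change -0.23, limma adjusted p = 2.8e-05), a call lost under quantile normalization (limma adjusted p = 0.0969), and Prdm1, which encodes Blimp-1, 1.98 ± 0.177 and 2.65 ± 0.216 FPKM (-0.29, limma adjusted p = 0.00859). Irf4, a factor induced by antigen receptor signals, was higher at 28.8 ± 0.598 and 25.6 ± 1.18 FPKM (0.17, limma adjusted p = 0.00584). Runx3 (-0.14) and Batf (-0.12) were lower and Nfatc2 (0.10), one of the factors that bind the NFAT core, was higher. With short RNA genes left out the calls of Runx3 and Batf were lost and Nfatc2 stood at 0.16, and under quantile normalization Batf and Nfatc2 were not called. Tox, Maf, Nr4a1 and Nr4a3, factors often tied to Pdcd1, Lag3 and Tigit, were not called, at log2 fold changes of 0.00, 0.00, 0.07 and 0.08.

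**Figure D4:**
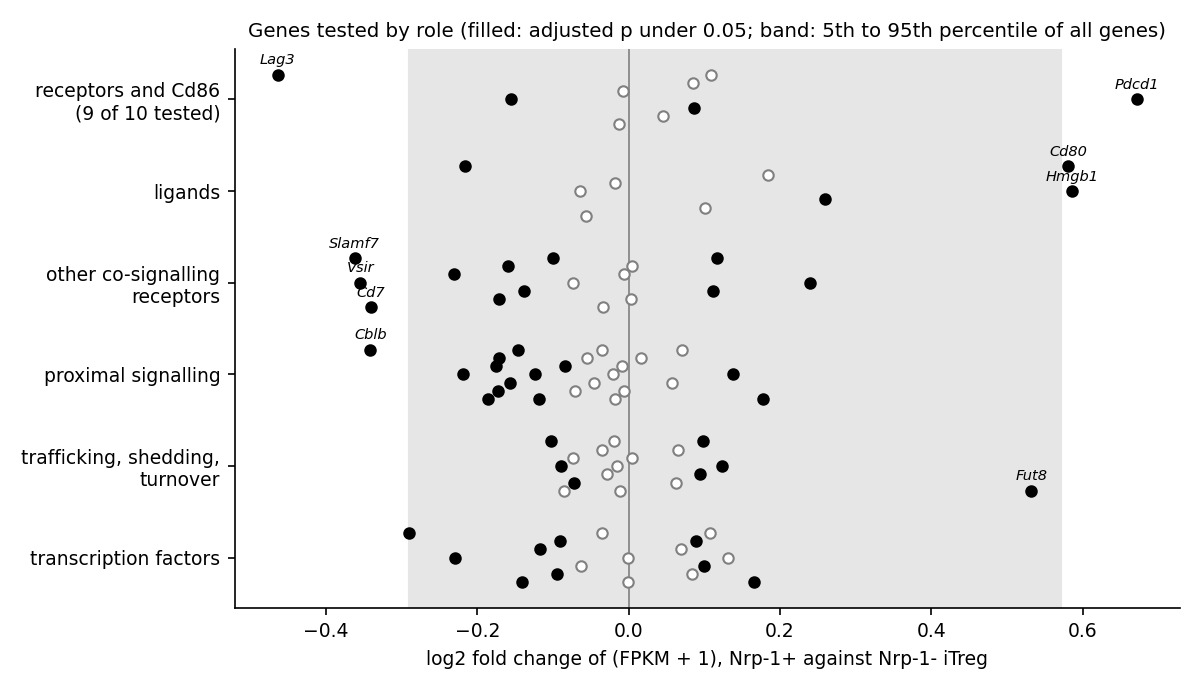
Log2 fold change of (FPKM + 1) in Nrp-1+ against Nrp-1- iTreg (x axis) for each gene tested, by role (rows, spread vertically only to separate points); filled points had a limma adjusted p under 0.05, the grey band spans -0.29 to 0.57 (5th to 95th percentile of all genes tested), and called genes beyond 0.34 in size are named. Pdcd1, Cd80 and Hmgb1 lay above the band, and Lag3, Slamf7 (which passed the filter only through Nrp-1- iTreg), Vsir, Cd7 and Cblb below it.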

How the data were processed

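Libraries of poly(A) RNA were sequenced on an Illumina instrument by the study's methods, which name the NEBNext Ultra Directional kit, whereas the labels name a SMARTER kit. The authors used CLC Genomics Workbench and Cufflinks, and the deposited table holds an FPKM value for each gene symbol in each library. The submitters' processing notes name the builds GRCm38 and mm10, and whether counting used strand is not given in the sources used here. In GENCODE M21 no exon of another gene overlapped an exon of the 10 genes.

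No further scaling was applied. A gene was tested where its mean reached 1 FPKM (10467 of 23361 genes). The test was limma 3.58.1 on R 4.3.3, run on log2(FPKM + 1) with the trended eBayes and no replicate block, and p-values were adjusted by Benjamini-Hochberg. The fit was tested on simulated data. Ratios of (FPKM + 1) within a library were compared on the log2 scale with exact permutation tests in Python 3.11.15 (pandas 2.3.3, numpy 2.4.6). The permutation routine was checked against that of scipy 1.17.1. Plots were drawn with matplotlib 3.10.9. Fragments were estimated from the value of 1 fragment in low genes and the longest transcript of each gene, and they bear on counting error only.

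The 10 genes, the lists and the alternatives were chosen with earlier results of these data known. Named from each list were up to 6 called genes with the largest fold changes, of which 1 is not reported here. Uncalled genes named beside them were picked after their values were seen. Alternatives were pseudocounts of 0.1 and 0.5, no filter, a filter at a mean FPKM of 5, size factors, quantile normalization, a replicate block, eBayes without trend, array weights, short RNA genes left out, a correction for GC content and length (with and without the block), and each library left out in turn. Thymus-derived Treg libraries of the study were not analysed here.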

Additional observations from a re-analysis of the deposited data

Results flagged for a closer look

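In groups of 4 libraries, 11 values stood apart from the other 3 of their group by Dixon's criterion, among 91 groups examined, where chance alone gives about 4.55. The 11 are not separate deviations, since the ratios of Ctla4 to Cd28 and of Tigit to Cd226 were examined beside their genes.

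In Nrp-1- replicate 1, both Cd28 (103.1 FPKM) and Ctla4 (155.6 FPKM) stood apart, Cd28 above and Ctla4 below the other Nrp-1- libraries, and so did their ratio (1.509). This library also held the largest share of short RNA genes, 43.9% of its summed FPKM, but Nrp-1+ replicates 2 and 4 held 36.6% and 38.9%. A link of this share to the Cd28 and Ctla4 values was not tested. Without Nrp-1- replicate 1 the log2 fold change of Cd28 was 0.11 and that of Ctla4 was -0.17, both called by limma.

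Tigit in Nrp-1+ replicate 3 (0.7892 FPKM) lay below the other Nrp-1+ libraries, as did the ratio of Tigit to Cd226 there (0.08008), and that ratio was lowest among the Nrp-1- libraries in replicate 2 (0.106). Among the named genes of the lists, the values that stood apart were Cd7 in Nrp-1+ replicate 1 (97.46 FPKM), Cd101 in Nrp-1- replicate 4 (10.73 FPKM), Pik3cd in Nrp-1+ replicate 4 (168.0 FPKM), Fbxo38 in Nrp-1+ replicate 2 (23.53 FPKM) and Prdm1 in Nrp-1- replicate 1 (2.97 FPKM).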

How the results depend on the processing

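Pdcd1 kept its direction and its call in 20 of 20 alternatives (limma adjusted p up to 0.00987) and Lag3 in 19 of 19 (up to 0.0314); a filter at a mean of 5 FPKM left Lag3 untested, so 1 receptor was then lower. Ctla4 kept its call in 18 of 20, and 1 receptor was lower under quantile normalization (Ctla4 adjusted p = 0.0518) and under the replicate block with GC and length correction (0.0517). One receptor, Pdcd1, was higher when Cd28 lost its call, which it did under no filter (limma adjusted p = 0.0555), quantile normalization (0.31), the replicate block (0.0518), eBayes without trend (0.0618), GC and length correction (0.245) and the block with that correction (0.393); the count was 1 in each of these and ranged from 1 to 2 as libraries were left out in turn. The cause was not tested. Without Nrp-1+ replicate 3 the count was 2, with Tigit in place of Cd28. Signs turned for Btla under array weights (log2 fold change 0.0019) and without short RNA genes (0.0478), and for Cd226 without short RNA genes (0.0504); with libraries left out, Btla ran from -0.0565 to 0.0170 and Cd226 from -0.0370 to 0.0171. Over all genes, 1065 were lower without short RNA genes, where the median log2 fold change moved from -0.02 to 0.04, and 1344 were higher and 1059 lower under the block with GC and length correction. The 4 ratios kept their direction and stayed above 0.05 after adjustment in 13 of 13 alternatives each. The number of libraries limits this outcome. With 2 of the 4 ratios at the smallest exact permutation p, 0.0286, the adjusted p cannot fall below 0.0571. Whether same-numbered libraries of the groups came from the same culture is not stated. Their deviations from the group means correlated at -0.54, -0.02, 0.01 and -0.50 (replicates 1 to 4) over all genes tested. Without short RNA genes the correlations were -0.04, -0.06, -0.08 and -0.11. Since the deviations are taken from means of only 4 libraries, these values cannot tell whether the numbers mark pairs. With the replicate block, 1931 genes were higher and 1675 lower, and for ratios the smallest p that 4 pairs allow is 0.125. Tigit (16 to 30 estimated fragments) and Havcr2 (0 to 4) are limited by depth.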
